A study of Mus musculus with 24 samples.

Results

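Imprinted genes are a group of 46 mouse genes, taken here by name from the GENCODE vM21 annotation, which holds 55450 genes. All 46 were found, 38 of them protein-coding and 8 noncoding. They fall into 19 imprinted domains, which are neighbourhoods of genes under a shared control region. For each gene, the peaks of open chromatin inside the gene and within 10 kb either side were taken from peak lists of 24 ATAC-seq libraries. These places held 494 of the 233706 windows into which the peaks of all 24 lists were gathered. ATAC-seq cuts open DNA with a transposase, and a peak marks a place where cuts pile up.

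An imprinted gene is expressed mainly from the copy inherited from the mother or mainly from the copy inherited from the father. The choice is set by DNA methylation laid down in egg or sperm at a control region, which then acts on several genes around it. At H19 and Igf2 the zinc finger protein CTCF binds the unmethylated maternal control region and insulates Igf2 from enhancers, while at Kcnq1, Igf2r and Gnas a noncoding RNA that starts in the control region runs antisense to a neighbour. The zinc finger protein ZFP57 binds the methylated copy of many control regions and keeps the mark in embryonic stem cells. Peak lists carry no information on the parental copy, so a call can come from either copy or both. In bulk cells, fewer cells with an open site and less opening per cell cannot be told apart.

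The cells were E14, a mouse embryonic stem cell line, and in all 12 groups CTCF carried an auxin-inducible degron (AID), a tag through which the auxin IAA triggers degradation of the protein. Each group had 2 libraries, and the labels do not say whether these came from separate cultures. In the serum set with IAA, the peak names inside the deposited lists number the replicates 2 and 4 where the titles number them 1 and 2, and the titles were followed here. In the CTCF lines, a line labelled as an overexpression control was taken both untreated and with 12 h of IAA. Lines that overexpressed wild type CTCF or mutated CTCF were taken with 12 h of IAA only. In the Chd4 set and in the Chd8 set, cells without IAA carried either the hairpin shluci or 1 of 2 hairpins, shRNA1 and shRNA2, named with the chromatin remodeller Chd4 or Chd8. The serum set holds cells labelled as in serum, either untreated or with 12 h of IAA, although the growth protocol given for them also names a serum-free medium. The Chd4, Chd8 and serum sets carry the degron with no overexpression named, so the serum set and the control line differ in genotype as well as medium. The labels give neither the CTCF mutation nor whether a line is a single clone, and knockdown cannot be checked from peaks.

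The sequences below carry the findings on CTCF and ZFP57, all read from GRCm38.p6 and printed 5′ to 3′. The first set is the H19 control region, since this is the best known CTCF-bound imprinted site. A search for the core CCGCGNGGNGGCAG on both strands of its 2501 bp, 2 to 4.5 kb upstream of the H19 start, found 3 matches, which are in capitals below. This H19-type core was chosen for this region after the data were seen, so finding it here follows from the choice. It differs from the 14-letter CTCF consensus used below, so these matches are not part of the consensus counts. The same core was found in 0.0129% of the windows searched (29 of 225655). Those windows are 501 bp each, so this share is not a measure of enrichment in the H19 region.
H19 region, 2166 bp upstream (chr7:142580289-142580342, - strand): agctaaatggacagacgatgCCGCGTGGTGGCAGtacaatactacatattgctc
H19 region, 2621 bp upstream (chr7:142580744-142580797, - strand): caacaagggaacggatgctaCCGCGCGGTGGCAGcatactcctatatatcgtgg
H19 region, 3891 bp upstream (chr7:142582014-142582067, - strand): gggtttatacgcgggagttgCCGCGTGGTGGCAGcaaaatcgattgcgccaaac

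The second set comes from the windows that the CTCF comparisons turn on, and shows the best match to the 14-letter CTCF consensus in capitals with 20 bases either side. The Peg13 site is added because it lies in a control region. A window of the Nespas control region, chr2:174295354-174295854, also held a match, with 1 mismatch, which is not printed. That window was called in 20 libraries, among them both of each group of the CTCF lines, and the Peg13 window in 7. The consensus was searched on both strands and at most 1 mismatch counted as a match, which 5.57% of all windows held. Of the printed matches, those at Usp29, Ddc and Magel2 had 0 mismatches, the one in the Mcmbp intron had 2, and the other 6 had 1.
Usp29 intron (chr7:6918439-6918492, - strand): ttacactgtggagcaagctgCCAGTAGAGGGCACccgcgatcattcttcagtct
Ddc intron (chr11:11820385-11820438, + strand): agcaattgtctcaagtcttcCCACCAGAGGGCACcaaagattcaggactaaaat
Mcmbp intron, Inpp5f flank (chr7:128705866-128705919, - strand): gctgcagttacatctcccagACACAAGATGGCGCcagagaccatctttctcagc
Kcnk9 intron (chr15:72517209-72517262, - strand): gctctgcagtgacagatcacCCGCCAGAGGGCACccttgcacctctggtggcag
Magel2 flank (chr7:62382581-62382634, - strand): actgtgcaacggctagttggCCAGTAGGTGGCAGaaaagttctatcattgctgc
Slc22a18 flank (chr7:143470138-143470191, - strand): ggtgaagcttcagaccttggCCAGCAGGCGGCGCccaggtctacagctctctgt
H13 intron (chr2:152693404-152693457, + strand): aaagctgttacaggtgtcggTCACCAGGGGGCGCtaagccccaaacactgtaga
Grb10 intron (chr11:11973585-11973638, - strand): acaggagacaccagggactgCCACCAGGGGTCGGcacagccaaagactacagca
Commd1 intron (chr11:22950303-22950356, + strand): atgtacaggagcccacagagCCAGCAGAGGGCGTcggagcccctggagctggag
Peg13 promoter (chr15:72810065-72810118, - strand): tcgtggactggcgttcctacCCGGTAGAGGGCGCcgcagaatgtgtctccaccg

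The third set is the 250 bases before the start of a gene at 3 control regions that differed in their calls, from the RefSeq promoter sequences of the same build. Capitals mark the hexamer TGCCGC bound by ZFP57, or its complement GCGGCA. The hexamer was present in 11.6% of all 32851 RefSeq promoters, and in 13 of 51 promoters of the 35 imprinted genes that matched that table. The 3 printed here all hold it, while the RefSeq promoters of Peg3, Kcnq1ot1, Zrsr1 and Airn, also control regions, hold 0 copies.
Mest (chr6:30737800-30738049, + strand): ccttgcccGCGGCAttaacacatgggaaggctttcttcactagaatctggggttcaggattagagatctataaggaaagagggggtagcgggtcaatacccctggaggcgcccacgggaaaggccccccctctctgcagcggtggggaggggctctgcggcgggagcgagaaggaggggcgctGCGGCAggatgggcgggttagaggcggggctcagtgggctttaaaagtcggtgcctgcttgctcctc
Mcts2 (chr2:152686898-152687147, + strand): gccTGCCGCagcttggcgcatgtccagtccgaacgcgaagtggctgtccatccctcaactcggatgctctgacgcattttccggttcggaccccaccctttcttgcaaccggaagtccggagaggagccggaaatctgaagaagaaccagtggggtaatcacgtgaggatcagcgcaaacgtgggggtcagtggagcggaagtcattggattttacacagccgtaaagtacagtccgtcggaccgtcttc
Plagl1 (chr10:13090582-13090831, + strand): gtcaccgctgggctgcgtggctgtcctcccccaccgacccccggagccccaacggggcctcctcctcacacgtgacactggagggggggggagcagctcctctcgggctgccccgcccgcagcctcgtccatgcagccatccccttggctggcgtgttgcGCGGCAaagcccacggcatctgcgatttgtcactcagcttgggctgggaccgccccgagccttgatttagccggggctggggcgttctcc

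A window is 501 bp centred on a peak's summit, and a library calls it when a peak of its list overlaps it. Lists were first shortened to the shortest of their set by the authors' −log10 p, which left 120137 peaks per list for the CTCF lines, 80619 for Chd4, 135410 for Chd8 and 59786 for serum. The imprinted genes and their flanks took between 0.156% and 0.233% of each shortened list, with the lowest values among the Chd4 libraries (0.156% to 0.208%). The lists also differed in their shortest peak, from 29 bp in the Chd8 set to 172 bp in the serum set. Groups are therefore compared within a set. As a check of the cell type, promoters of 8 stem cell genes were called in 8 to 23 libraries, with Nanog in 22, Sox2 in 20 and Pou5f1 in 8. Of 5 fibroblast genes, Col1a1 and Postn were called in 0 of 24 libraries, Thy1 in 17, Twist2 in 20 and Col1a2 in 23. The 11 neural, endoderm and trophoblast promoters were called in 16 to 24, so a promoter call alone did not separate these cell types. At 59786 peaks per list the stem cell promoters were called in 3 to 22 libraries and these 11 in 8 to 24, with Pou5f1 in 3, Twist2 in 7, Elf5 in 8, Sox17 in 10 and Gata6 in 12.

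Windows lay more densely around the imprinted genes than over the genome, at 14.1 against 8.56 per 100 kb. The genome figure includes stretches far from any gene, and the density around other genes was not measured. Between domains the density ran from 3.10 per 100 kb at Mest to 26.9 at Gnas. Of the windows of the imprinted genes, 18% lay within 500 bp of a start, 12.1% in exons, 55.7% in introns and 14.2% between genes. Over all windows these shares were 11.5%, 6.69%, 45.2% and 36.6%. A choice of places around genes favours starts and introns, so these shares describe the choice as well as the genes. The median GC content was 51.3% against 49.1% over all windows. The CTCF consensus was found in 36 of the 494 windows (7.29%, against 5.57% of all) and the hexamer in 73 (14.8%, against 10.4%). The Kcnq1 domain held 7 of the 36 CTCF consensus windows, and Igf2r, Grb10 and Peg13 held 4 each. All 24 libraries called 19 of the 494 windows (3.85%), where 3.72% of all windows were called by all 24. Of those 19, 5 lay in the Snrpn domain, 4 in the Grb10 domain and 3 in the Peg3 domain.

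Promoters of the imprinted genes ranged from always called to never called. A promoter call is a called window centred within 500 bp of an annotated start. It was made in all 24 libraries for 8 genes, all of them protein-coding, where 18.2% of the 21951 protein-coding genes of the annotation had such a promoter. These 8 were Snrpn, a component of the splicing machinery, Ube3a, a ubiquitin ligase, Magel2, of the MAGE family, Zim1, a zinc finger gene, Rasgrf1, an exchange factor for Ras proteins, Zdbf2, and Blcap and Commd1, which each host an imprinted gene in an intron. No library called the promoters of H19, Rtl1, Rian, Mirg and Ndn, of which Rtl1 and Ndn are protein-coding, against 29.3% of all protein-coding genes. Only 5 genes were called in all 24 libraries with all lists at 59786 peaks, against 13.8% of all protein-coding genes, since Snrpn and Rasgrf1 were then called in 23 and Zdbf2 in 21. Igf2, Mest and Nnat joined the genes called in none, which then numbered 8, of which 5 are protein-coding, against 31.2%.
The Ndn result rested on the start used. A window at chr7:62348108-62348608, 1789 bp from the annotated start and named after its values were seen, was called in all 24 libraries, and with RefSeq starts added the Ndn promoter was called in 24 libraries. With that addition, 9 genes were called in all 24 libraries and 4 in none.

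**Figure D1:**
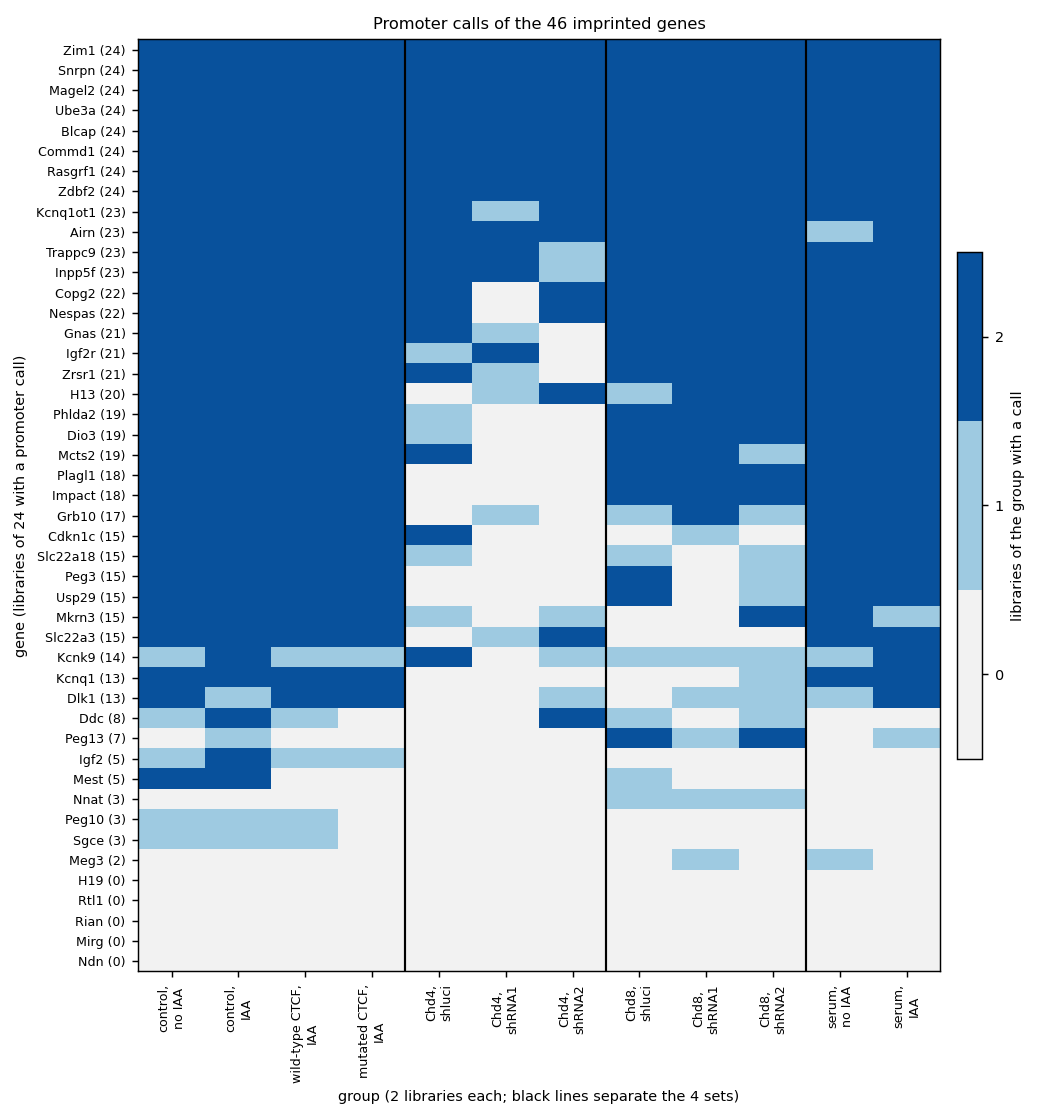
Promoter calls of the 46 imprinted genes (rows, with the number of libraries of 24) in the 12 groups (columns), where the colour gives the libraries of a group, 0, 1 or 2, with a called window within 500 bp of an annotated start. The 8 genes at the top were called in every library, and the Chd4 set was emptiest in the middle rows.

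Between these extremes the calls differed between the 4 sets, whose lists differ in length. In the CTCF lines 31 of 46 promoters were called by all 8 libraries and 7 by none, and in the serum set 29 were called by all 4 libraries and 11 by none. The Chd8 set had 21 promoters in all 6 libraries and 9 in none, and the Chd4 set had 9 and 17. Of the 38 protein-coding imprinted genes, 28 were called by all libraries of the CTCF lines, against 63.6% of all protein-coding genes, and 3 by none, against 30.3%. In serum 27 were called by all, against 57.6%, and 8 by none, against 34.5%. For Chd8 18 were called by all, against 47.8%, and 6 by none, against 32.7%. For Chd4 8 were called by all, against 19.1%, and 12 by none, against 38.1%, so few promoters of any kind were called throughout the Chd4 libraries. Lists of equal length, at 59786 peaks each, gave fewer such genes except in serum, whose lists stay as they were. The protein-coding imprinted genes called by all libraries then numbered 22 in the CTCF lines, against 55.4% of all protein-coding genes, 27 in serum, against 57.6%, 13 for Chd8, against 36.2%, and 6 for Chd4, against 15.4%.
The counts of single genes that follow come from lists of a length that differs between sets. Cdkn1c, an inhibitor of the cell cycle, was called in 15 libraries, which were all 8 of the CTCF lines, all 4 of the serum set, both shluci libraries of the Chd4 set and 1 shRNA1 library of the Chd8 set. Phlda2, which restrains placental growth, was called in 19 libraries and Igf2r, the receptor that clears Igf2, in 21. Grb10, an adaptor that dampens insulin signalling, was called in 17. Igf2, the growth factor, was called within 500 bp of a start in 5 libraries, all of the CTCF lines. With windows up to 1000 bp from a start it was called in 16, and with all lists at 59786 peaks in 0. Dlk1, a ligand-like protein of the Notch family, was called in 13 and Peg3, a zinc finger gene, in 15. Plagl1, a zinc finger transcription factor, and Impact were called in 18 libraries, which were every library outside the Chd4 set. At 59786 peaks per list each was called in 16, and 0 imprinted genes had that pattern. Of the 17606 windows then called by all 18 libraries outside the Chd4 set, 0.954% were called by no Chd4 library.

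Several imprinted genes share a start region, so their promoter calls were not independent. Peg3 and Usp29 start beside each other and were both called in 15 libraries, with the same count in each group. Peg10 and Sgce, which also start beside each other, were both called in 3. Some imprinted genes lie inside an intron of a host gene, and their calls differed from the host's. Mcts2 was called in 19 libraries and its host H13, a signal peptide peptidase, in 20. Zrsr1, related to a splicing factor, was called in 21 and its host Commd1 in 24. Nnat was called in 3, all of the Chd8 set, while its host Blcap was called in 24. The noncoding Peg13 was called in 7 libraries, of which 5 were in the Chd8 set, and its host Trappc9 in 23. The remaining genes between the extremes were Copg2 with 22 libraries, Gnas with 21, Dio3 with 19, Inpp5f with 23, Slc22a18, Mkrn3 and Slc22a3 with 15 each, Kcnk9 with 14, Kcnq1 with 13, Ddc with 8 and Mest with 5.
Some of these counts depended on list length or on the distance from a start. At 59786 peaks per list, Dlk1 was called in 4 libraries in place of 13, Kcnk9 in 4 in place of 14, Slc22a3 in 5 and Slc22a18 in 9 in place of 15 each, Ddc in 2 in place of 8 and Peg13 in 2 in place of 7. The Mest count went from 5 to 0, the Nnat count from 3 to 0 and the Meg3 count from 2 to 1. With windows up to 1000 bp from a start, Peg10 was called in 17 libraries in place of 3, Mest in 8 and Mkrn3 in 23.

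Control regions were examined at 15 places, of which 13 were the methylated promoters within 1 kb of a start. The 3 antisense RNAs had promoters called nearly everywhere. Kcnq1ot1, which runs antisense inside Kcnq1, was called at chr7:143296539-143297039 in 23 libraries. The percentile of its peak (100 is the strongest of a list) was 92.7 and 92.1 in the control line without IAA, and 89.8 and 90.5 with IAA. It was 80.7 and 67.7 with shluci of the Chd4 set, 0 (no peak) and 61.1 with shRNA1, and 74.1 and 76.9 with shRNA2. The single library without the peak was therefore in the Chd4 set. Airn, which runs antisense to Igf2r, was called at chr17:12741142-12741642 in 23 libraries, and the library without it was in the serum set without IAA. In the serum set its peak ranked at 30.8 and 0 without IAA and at 33.0 and 18.9 with IAA. In the CTCF lines it ranked at 66.5 to 84.2, but ranks of different sets come from lists of different length and are given side by side only, here and below. Nespas, antisense to Gnas, was called in 22 libraries, with both missing libraries in the shRNA1 group of the Chd4 set.

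The Snrpn promoter, the control region of the domain affected in Prader-Willi and Angelman syndromes, was called by all 24 libraries at chr7:60004633-60005133. This window held 4 copies of the ZFP57 hexamer, as did its neighbour at chr7:60004024-60004524, which 20 libraries called. At the first window the CTCF lines ranked from 73.8 to 89.6, serum from 70.9 to 89.8 and Chd8 from 84.4 to 96.5. Within the Chd4 set the ranks were 32.4 and 31.3 with shluci, 20.9 and 34.5 with shRNA1 and 73.6 and 78.6 with shRNA2, so the shRNA2 libraries stood above the other 4.

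The Peg3, Plagl1, Mcts2 and Zrsr1 control regions were called in every library of the CTCF lines and the serum set, and in 0, 0, 2 and 3 of the 6 libraries of the Chd4 set. At the Peg3 promoter, chr7:6730245-6730745, the rank was 56.3 to 69.6 in the 8 libraries of the CTCF lines and 0 in all 6 of the Chd4 set. In the Chd8 set it was 44.9 and 35.5 with shluci, 0 and 0 with shRNA1, and 0 and 43.1 with shRNA2. The Plagl1 promoter, chr10:13090535-13091035, also had no peak in the 6 libraries of the Chd4 set. Within the CTCF lines its rank was 83.3 and 90.2 in the control line without IAA, 81.7 and 88.4 with IAA, 31.3 and 55.7 in the wild type CTCF line and 52.1 and 40.9 in the mutated CTCF line. The control line was higher with and without IAA than both overexpressing lines, and the ranges did not overlap. How often windows over the genome show such a gap was not counted, and the difference between the lines was not tested. Mcts2, whose promoter sequence is printed above, had ranks of 88.9 to 94.2 in the CTCF lines, 33.5 and 7.67 with shluci of the Chd4 set and 0 in its 4 shRNA libraries.

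Mest, which encodes a hydrolase-like protein, was called near its start (chr6:30737553-30738053, with 4 hexamers) in the 4 libraries of the control line, at ranks of 17.7 and 19.9 without IAA and 21.9 and 13.7 with IAA. The 4 libraries of the wild type and mutated CTCF lines had no peak there, nor had the Chd4 and serum sets, and 1 shluci library of the Chd8 set had it at 45.7. These ranks lie in the lower part of the lists, and with all lists at 59786 peaks the window was called in 0 libraries, so the difference between the lines was then absent. At the Plagl1 window the control line then had all 4 calls and each overexpressing line 1 of 2. At Peg10, derived from a retrotransposon, the window at the start was called in 3 libraries, while a window in an intron, centred 933 bp from the start, was called in 17. The Meg3 promoter was called in 2 libraries and Nnat in 3. At 59786 peaks per list, any window within 1 kb of a start was called in 2 libraries at Mest in place of 8, in 10 at Peg10 in place of 17, in 3 at Peg13 in place of 8 and in 0 at Nnat.

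The H19 control region was nearly empty. It held 1 window, chr7:142581248-142581748, called by 1 shluci and 1 shRNA2 library of the Chd8 set at ranks of 26.4 and 60.3. The 3 CTCF cores printed above had no peak of any of the 24 deposited lists over them or within 250 bp. A region without a call is below the limit of the lists, and accessibility below that limit was not detectable here. Of the 494 windows, the H19-Igf2 domain held 4. The remaining 3 lay at Igf2, and the one at chr7:142660484-142660984, named after its values were seen, was called by both libraries of each of the 4 CTCF line groups and of both serum groups. At equal list length, 59786 peaks, both libraries of the mutated line and of both serum groups called it, 1 library of the control line did so without IAA and 1 with IAA, and 0 of the wild type line.

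**Figure D2:**
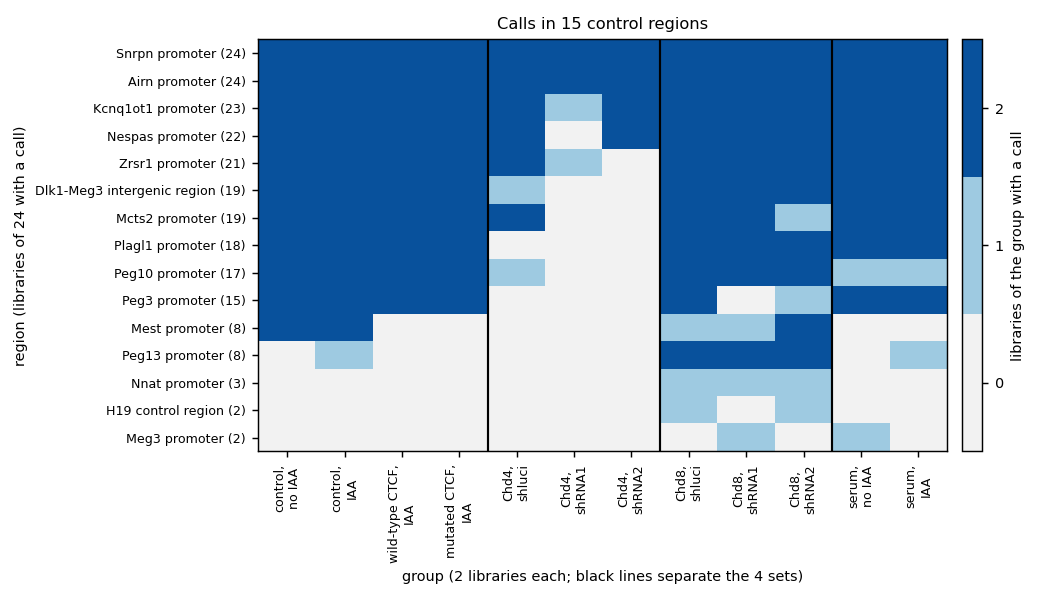
Calls in 15 control regions (rows, with the number of libraries of 24 that called any window there) in the 12 groups (columns), where the colour gives the libraries of a group, 0, 1 or 2. The 5 regions at the top were called in 21 or more libraries, and H19 and Meg3 in 2.

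The intergenic region between Dlk1 and Meg3, 11 to 17 kb upstream of the Meg3 start, lay beyond the 10 kb flank and held 5 windows. The one called most, chr12:109527340-109527840, was called in 19 libraries, with ranks of 59.8 to 81.4 in the CTCF lines, 60.9 to 80.5 in serum and 39.1 to 70.9 among the Chd8 libraries. In the Chd4 set it was called in 1 shluci library, at 56.0. No other window of the region was called in the Chd4 set. In the Chd8 set, the 5 windows were called in 3 to 6 libraries except the one nearest Meg3, which was called in 1.

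The comparisons with IAA address accessibility after degradation of CTCF. A window is lost when both reference libraries call it and neither treated library does, and gained in the opposite case. Losses are given as a share of windows called by both reference libraries, and gains as a share of those called by neither. With 2 libraries a side, an exact permutation test (two-sided) cannot give a p under 0.333, so no test was run and shares are set beside those over all windows.
With IAA in serum-free medium, 16 of 277 windows of the imprinted genes were lost (5.78%), against 6.60% of all windows, and 15 of 138 were gained (10.9%), against 9.38%. In serum, 7 of 125 were lost (5.60%), against 8.58%, and 13 of 300 were gained (4.33%), against 3.54%. None of these differences from the background was tested. The 16 losses lay in 9 domains, with 4 in Dlk1-Dio3 and 3 in Peg3. When each of the 4 libraries was left out in turn, so that 1 library decided the call of its group, the losses rose to 24 to 34 in serum-free medium and 9 to 22 in serum. Gains in serum-free medium were 7 with the lists at their deposited length or at 59786 peaks and 8 with −log10 q of at least 10. Gains in serum were 22 with the lists at their deposited length and 7 with 50% coverage.

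As shares, losses were higher among windows with the CTCF consensus than among those without it. Of the windows of the imprinted genes with a match, 6 of 22 were lost in serum-free medium (27.3%), against 3.92% of those without a match. In serum 4 of 12 were lost (33.3%), against 2.65%. Over all windows of the genome the shares with a match were 34.8% and 40.8%, and without one 4.75% and 5.56%. The count of 6 became 3 when no mismatch was allowed and 12 when 2 were, and the count of 4 became 2 and 5. Of the 36 windows with a match, both libraries called 22 in the control line without IAA, 12 with IAA, 20 in the wild type CTCF line and 17 in the mutated line, or 61.1%, 33.3%, 55.6% and 47.2%. Over all windows with a match these shares were 59.0%, 33.4%, 47.2% and 45.3%. In serum both libraries called 12 without IAA (33.3%) and 10 with IAA (27.8%), against 36.5% and 19% of all windows with a match. Matches lay away from the summit in the lost windows, at 83 to 233 bp from the centre for the 8 with at most 1 mismatch. Only 2 windows of the imprinted genes called by both reference libraries in serum-free medium had a match within 50 bp of the centre, and neither was lost, which is too few to read a share from. Over all windows, 40.8% of those with a match that near were lost and 32.7% of those with one farther off. In serum these shares were 44.7% and 39.6%, and no window of the imprinted genes with a match that near could be lost.

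Both media lost 3 windows of the imprinted genes of the 121 called by all 4 libraries without IAA (2.48%), against 3.04% of all windows. No window was gained in both media, against 0.247% of all. All 3 lay in introns, and their best CTCF matches are printed above. The count was 1 with the lists at their deposited length and 5 with all lists at 59786 peaks.
The first, chr7:6918004-6918504, lies in an intron of Usp29, a gene of the deubiquitinase family in the Peg3 domain. Its peak ranked at 77.2 and 61.8 in the control line without IAA, 0 and 0 with IAA, 47.8 and 61.6 in the wild type CTCF line and 47.3 and 38.6 in the mutated line. In the serum set it ranked at 64.6 and 38.9 without IAA and 0 and 0 with IAA. The values without and with IAA follow from the choice of the window, and both libraries of each overexpressing line had the peak. With the lists at their deposited length, or with −log10 q of at least 10, it was no longer lost in both media.
The second, chr11:11820245-11820745, lies in an intron of Ddc, the decarboxylase that makes dopamine and serotonin, next to Grb10. It ranked at 66.2 and 59.3 without IAA, 0 and 0 with IAA, 35.4 and 45.4 in the wild type CTCF line and 0.349 and 0 in the mutated line. In serum it ranked at 79.8 and 73.6 without IAA and 0 and 0 with IAA. The wild type line had the peak in both libraries, and the mutated line had it in 1, at the foot of that library's list. With 50% of the window covered it was no longer lost in both media.
The third, chr7:128705693-128706193, lies in an intron of Mcmbp within the flank of Inpp5f, an inositol phosphatase. It ranked at 73.7 and 80.2 without IAA, 0 and 0 with IAA, 47.8 and 43.1 in the wild type line and 38.0 and 54.8 in the mutated line. In serum it ranked at 68.7 and 72.6 without IAA and 0 and 0 with IAA. Its best CTCF match has 2 mismatches, so it is not counted among the matches above. With the lists at their deposited length it was no longer lost in both media.

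**Figure D3:**
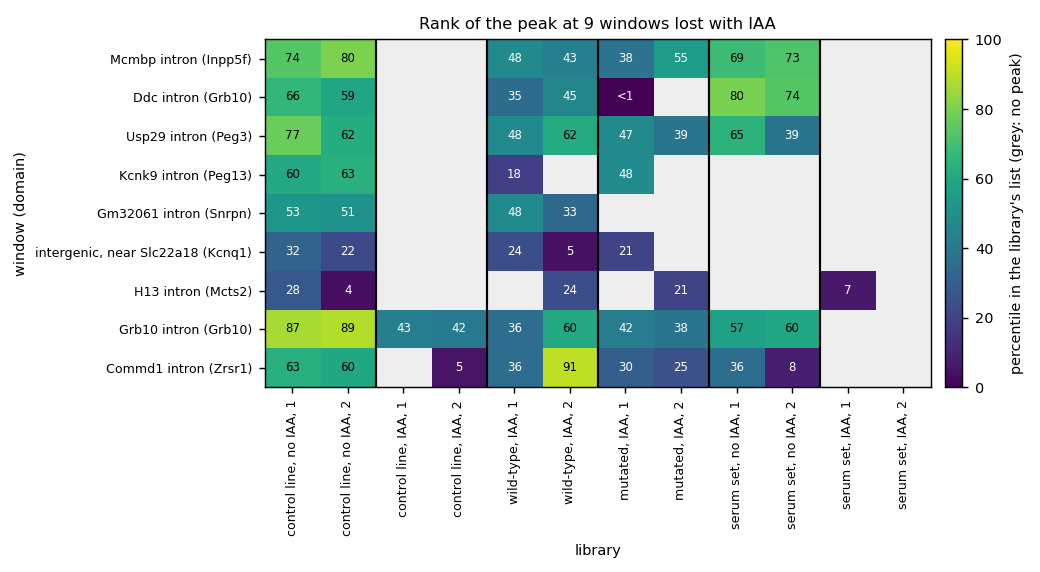
Percentile of the peak (colour and number) at 9 windows lost with IAA in at least 1 medium (rows) in the 8 libraries of the CTCF lines and the 4 of the serum set (columns), where grey marks no peak. The upper 3 windows had no peak in any of the 4 libraries of the control line and serum set with IAA.

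The other 4 windows with a match that were lost in serum-free medium had no peak in either serum library without IAA. In an intron of the potassium channel gene Kcnk9, chr15:72516762-72517262, the ranks were 60.3 and 63.4 without IAA and 0 and 0 with IAA. They were 18.4 and 0 in the wild type CTCF line and 48.1 and 0 in the mutated line. Near Magel2, chr7:62382147-62382647, they were 53.0 and 51.2 without IAA, 0 and 0 with IAA, 47.8 and 33.3 in the wild type CTCF line and 0 and 0 in the mutated line. Neither library of the mutated line called that window, while both called the one in Usp29. Near the transporter gene Slc22a18, chr7:143469682-143470182, and in H13, chr2:152692976-152693476, the ranks without IAA were 22.1 to 31.9 and 3.52 to 27.7, which is low in the lists. In serum, 2 windows with a match were lost that at least 1 control line library with IAA still called. One, in Grb10 (chr11:11973266-11973766), ranked at 57.4 and 59.6 without IAA and 0 and 0 with IAA in serum. In serum-free medium the same window ranked at 87.1 and 88.6 without IAA and at 43.3 and 41.5 with IAA, so it stayed in the lists at a lower rank. The other, in Commd1 (chr11:22949868-22950368), ranked at 36.0 and 8.43 without IAA in serum. With 50% coverage the windows at Kcnk9, Magel2, Slc22a18 and H13 were not lost in serum-free medium, nor was the one in Commd1 in serum. The windows at Slc22a18 and H13 were also not lost with −log10 q of at least 10 or with all lists at 59786 peaks, and those in Grb10 and Commd1 not with −log10 q of at least 10.

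The long Usp29 gene held 3 windows with a match of 0 mismatches, of which the other 2 are named after their values were seen. At chr7:6936837-6937337, both libraries of the control line without IAA and 1 with IAA called the window, and in serum 1 library called it without IAA and 0 with IAA. That window was also among those lost with both Chd4 hairpins. At chr7:6940766-6941266, both libraries called it in the control line with and without IAA, and in serum 1 library without IAA and 0 with IAA. Neither was lost in serum-free medium or in serum.

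Lines that overexpress CTCF were compared with the control line, all with IAA, and these comparisons share the control line's libraries with the comparison of IAA above. The wild type CTCF line had 11 of 135 windows gained (8.15%), against 8.10% of all, and 21 of 275 lost (7.64%), against 4.82%. The mutated line had 11 of 135 gained (8.15%), against 7.68%, and 11 of 275 lost (4.00%), against 3.63%. With all lists at 59786 peaks the mutated line had 4 gains and 4 losses. Its losses were 5 with 50% coverage and 1 with −log10 q of at least 10. The count of 21 losses fell to 10 with the lists at their deposited length and to 4 with all lists at 59786 peaks, and leaving out 1 library gave 29 to 57. Of the windows with a CTCF match, 5 of 17 were gained in the wild type line (29.4%, against 19.9% of all such windows) and 2 of 17 in the mutated line (11.8%, against 14.9%).
By rank, the 5 leading gains in the wild type line were at the introns of H13 (chr2:152671564-152672064), Usp29, Mcmbp and Ddc and near Magel2. In H13 the ranks were 75.5 and 80.4 in the control line without IAA, 0 and 0 with IAA, 62.2 and 63.2 in the wild type line and 20.9 and 0 in the mutated line. The 5 leading gains in the mutated line were at Mcmbp, Dlk1 (chr12:109453610-109454110, 200 bp from a start), Usp29, an intron shared by Airn and Igf2r (chr17:12755243-12755743) and Zim1 (chr7:6688738-6689238). The Dlk1 window ranked at 32.7 and 33.6 in the control line without IAA, 0 and 0 with IAA, 0 and 36.5 in the wild type line and 50.5 and 38.5 in the mutated line.
With all lists at 59786 peaks, 4 of the 5 in the wild type line (all but H13) and all 5 in the mutated line were no longer gained. With 50% coverage none of the 5 in the wild type line was gained, H13 included, and of those in the mutated line only Usp29 was. With −log10 q of at least 10, the window near Magel2 was no longer gained in the wild type line, nor were those at Usp29, Dlk1 and Zim1 in the mutated line.
Compared with each other, the wild type line lacked 15 of 275 windows of the mutated line (5.45%), against 3.78% of all, and had 5 of 138 that the mutated line lacked (3.62%), against 4.86%.

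**Figure D4:**
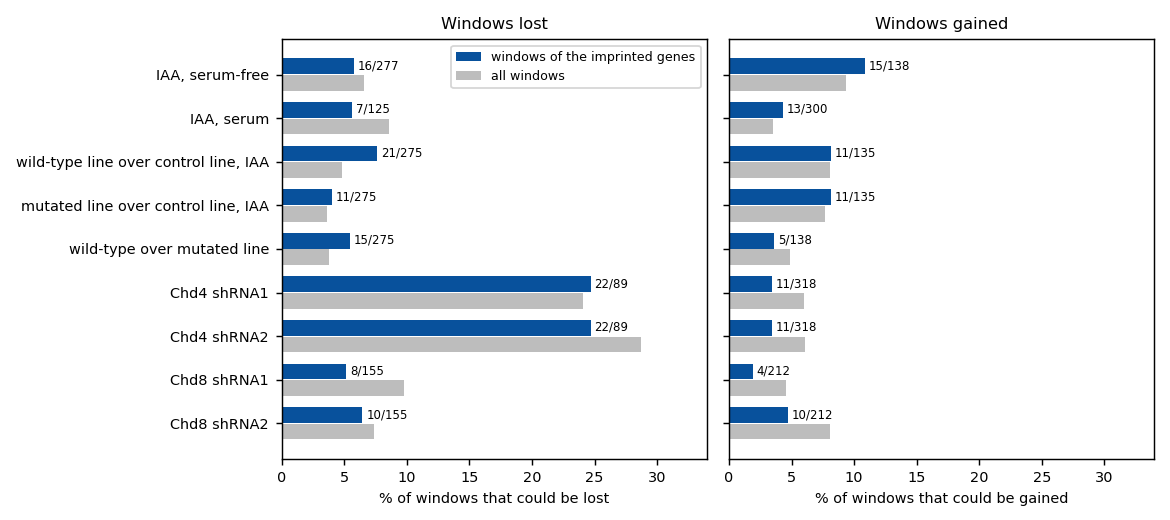
Windows lost (left) and gained (right) in 9 comparisons (rows) as a percentage of the windows that could be (horizontal axis), for windows of the imprinted genes (blue, with counts) and all windows (grey). The longest bars are the losses in the Chd4 set, at 24.7% of windows of the imprinted genes with either hairpin.

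The Chd4 and Chd8 sets address the remodellers CHD4, a core part of the NuRD complex, and CHD8. With Chd4 shRNA1, 22 of 89 windows of the imprinted genes were lost (24.7%), against 24.1% of all, and with shRNA2 22 of 89 (24.7%), against 28.7%. Gains were 11 of 318 with each hairpin (3.46%), against 6.0% and 6.08% of all windows. With shRNA1 and shRNA2, these gains became 0 and 1 with −log10 q of at least 10, and 1 and 2 with 50% coverage. With peaks of −log10 q of at least 10, each count of 22 became 5. The 2 comparisons share the shluci libraries. Called by both shluci and none of the 4 shRNA libraries were 12 of 89 windows (13.5%), against 14.2% of all, and the opposite was seen at 0 of 318, against 1.92%. Leaving out 1 library gave 14 to 33 in place of 12, and −log10 q of at least 10 gave 3.
The 12 lay in 10 domains and included the Mcts2 control region, and the 5 of highest rank are given here. The strongest lay 6279 bp from the Trappc9 start, at chr15:73067233-73067733. It ranked at 96.4 and 96.3 in the shluci libraries, had no peak in the 4 shRNA libraries and ranked at 93.9 to 99.8 in all 18 libraries of the other sets. At the Inpp5f promoter, chr7:128610845-128611345, the ranks were 87.4 and 87.9 with shluci, and 0 in the 4 shRNA libraries. With the lists at their deposited length or with 50% coverage this window was no longer lost, and windows at another annotated Inpp5f start were called in 3 of these 4 libraries. In Grb10, chr11:11942503-11943003, they were 60.0 and 64.1 with shluci, 0 in the shRNA libraries and 79.6 to 98.4 in the other sets. The remaining 2 were in a Snrpn intron, chr7:60006042-60006542, and upstream of Commd1, chr11:22985448-22985948. The windows in Grb10 and Snrpn and at Commd1 were not lost with −log10 q of at least 10 or with 50% coverage, and the one in Grb10 was not with the lists at their deposited length. The Trappc9 window was lost under each of these settings and with all lists at 59786 peaks.
Windows called in every library of the other sets were missing from part of the Chd4 libraries across the genome. With all lists at 59786 peaks, 17606 windows were called by all 18 libraries outside the Chd4 set, 47 of them at imprinted genes. The 2 shluci libraries called 85.1% and 93.6% of the 47 and 91.7% and 92.7% of the 17606. The 4 shRNA libraries called 53.2% to 68.1% of the 47 and 56.1% to 67.9% of the 17606. The part of this in the losses was not tested, and depth was not given in the sources used here.

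With Chd8 shRNA1, 8 of 155 windows were lost (5.16%), against 9.77% of all, and 4 of 212 gained (1.89%), against 4.55%. With shRNA2, 10 of 155 were lost (6.45%), against 7.35%, and 10 of 212 gained (4.72%), against 8.10%. The 10 losses became 0 with −log10 q of at least 10 or with 50% coverage, and the 10 gains became 5 with all lists at 59786 peaks. Both comparisons share the shluci libraries. With both hairpins, 5 of 155 were lost (3.23%), against 3.46%, and 1 of 212 gained (0.472%), against 1.28%. Leaving out 1 library gave 5 to 23 in place of 5.
The 5 lost windows lay in introns of Sgce, a sarcoglycan gene, Igf2r and Airn, Ube3a and Usp29, and in a coding exon of Peg3. They ranked low in the shluci libraries, at 27.2 and 41.5 in Sgce, 43.5 and 16.9 in Igf2r, 35.6 and 19.6 in Peg3, 26.7 and 21.8 in Ube3a and 8.54 and 16.0 in Usp29. With peaks at −log10 q of at least 10, or with at least 50% of a window covered, the count was 0 in place of 5. None of these 5 was lost with all lists at 59786 peaks, and the 3 windows lost under that setting were others. The gained window lay in a coding exon of Inpp5f, at ranks of 25.8 and 60.0 with shRNA1 and 10.0 and 39.8 with shRNA2. It was not gained with the lists at their deposited length, with all lists at 59786 peaks, with −log10 q of at least 10 or with 50% coverage.

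By domain, the calls were compared over the 12 groups with all lists at 59786 peaks. Both libraries called 160 of the 494 windows in the control line without IAA (32.4%, against 30.8% of all windows) and 152 with IAA (30.8%, against 31.4%). The wild type CTCF line had 145 (29.4%, against 29.6%) and the mutated line 160 (32.4%, against 31.0%). In the serum set the count was 125 without IAA (25.3%, against 23.8%) and 151 with IAA (30.6%, against 25.9%). The Chd8 set had 101 with shluci (20.4%, against 15.8%), 91 with shRNA1 (18.4%, against 15%) and 98 with shRNA2 (19.8%, against 19.3%). The Chd4 set had 76 with shluci (15.4%, against 15.8%), 49 with shRNA1 (9.92%, against 12.5%) and 47 with shRNA2 (9.51%, against 11.6%), so the counts with the hairpins were lower over all windows too.
In the Snrpn domain 13 to 14 of 25 windows were called in the groups of the CTCF lines, 11 to 12 in serum, 9 to 13 with the Chd8 hairpins and their control and 6 to 8 with those of Chd4. In the Dlk1-Dio3 domain, with 50 windows, 4 to 5 were called in the CTCF lines and 0 to 1 in the Chd4 set. The Kcnq1 domain, with 51 windows, had 11 to 15 in the CTCF lines, 10 and 18 in serum without and with IAA, and 5, 0 and 3 in the Chd4 set with shluci, shRNA1 and shRNA2. The Peg3 domain, with 48 windows, had 9 to 12 called in the Chd4 set and 12 to 17 in the Chd8 set. In the Grb10 domain, with 62 windows, the count was 26 in the control line without IAA and 20 with IAA, and 17, 9 and 7 in the Chd4 set. In the Igf2r domain, with 28 windows, 2 were called in each group of the Chd4 and Chd8 sets.

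**Figure D5:**
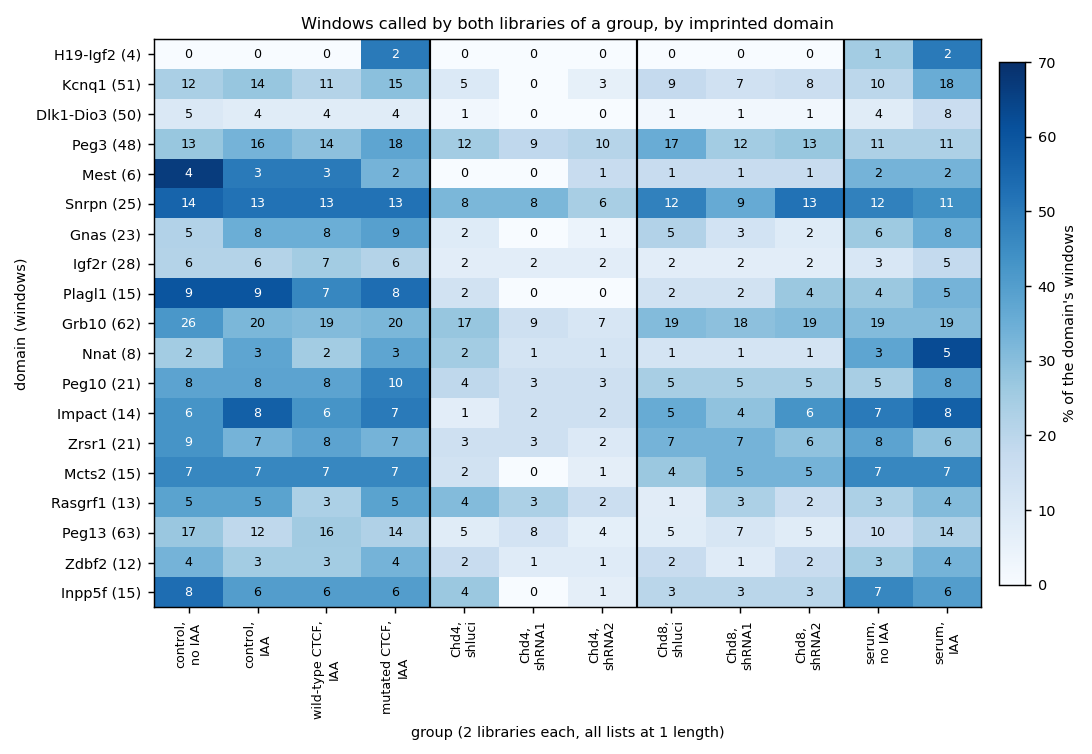
Windows called by both libraries of a group (number in each cell), by imprinted domain (rows, with the number of windows) and group (columns), with all 24 lists shortened to 59786 peaks, where the colour gives the percentage of the domain's windows. The Snrpn row holds 13 to 14 windows in the 4 groups of the CTCF lines.

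Genes that act on DNA methylation or imprints, with Ctcf and its relative Ctcfl, were examined by the same promoter calls. Of these 14 genes, 8 were called in at least 20 libraries, against 48.3% of all protein-coding genes, and 2, Dppa3 and Tet1, in 0. RefSeq starts, which changed the Ndn result, were not tried for these genes, so the counts of 0 rest on the annotated starts. Zfp57, Trim28 and Tet2 were called in 23, Zfp445, Dnmt1 and Uhrf1 in 22, Dnmt3b and Ctcf in 20 and Setdb1 in 19. Zfp57 and Zfp445 encode the zinc finger proteins that recognise methylated control regions, Trim28 and Setdb1 the repressors they recruit, and Dnmt1 and Uhrf1 the enzyme and cofactor that copy methylation. Dnmt3l was called in 9 libraries, among them all 4 of the serum set, and Ctcfl in 3. Tet1 and Tet2 encode enzymes that start the removal of methylation. For the 9 genes called in 19 or more libraries, every missing call lay in the Chd4 set, where Setdb1 was called in 1 of 6 libraries. Dnmt3a, an enzyme that lays down new methylation, was called in 15 libraries, of which 1 was in the Chd4 set and 2 in the Chd8 set. Again at 59786 peaks per list, 6 of the 14 were called in at least 20 libraries, Dnmt3b in 15, Dnmt3a in 10 and Dnmt3l in 4. The share of all protein-coding genes called in at least 20 was not counted at that length.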

How the data were processed

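ATAC-seq peak lists of 24 libraries, in 12 groups of 2, were analysed as deposited. Per the submitters' processing notes, reads were processed with Trim Galore, Bowtie2, MACS2 and deepTools on mm10. Settings, versions and depth were not given in the sources used here. As deposited, the authors' narrowPeak lists give each peak its fold enrichment over local background, −log10 p and −log10 q within its own library. The deposited narrowPeak score restates −log10 q and was not used. Each library has its own deposited list, and the number and rank of its peaks can depend on its depth.

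Each list was shortened to the shortest of its set by −log10 p, and ties were ordered by fold. Summits of all lists were gathered, best percentile first, into non-overlapping windows of 501 bp, and 233706 of 405819 were kept because at least 2 libraries called them. A peak overlapping a window by 1 bp is a call, and 1 peak can call neighbouring windows with the same percentile. The imprinted genes, domains and lists were chosen with earlier results of these data known. Genes and starts came from GENCODE vM21, and sequences from GRCm38.p6 and RefSeq promoters of that build. Chromosome 18 was left out of the search for the H19-type core and of the window density over the genome, but not of the density around the imprinted genes. No test was run. The text describes every control region but gives the position of only some of their windows, by no stated rule. It names every window lost in both media and up to 10 lost windows with the consensus per medium. Up to 5 windows per direction are named for the hairpin sets, and up to 5 gains in each overexpressing line. These limits were applied by mean percentile. Windows beyond that rule are said to be chosen after their values were seen. Whether the 2 libraries of a group were separate cultures is not stated. Alternatives were list length, a −log10 q minimum of 10, 50% coverage of a window, a 5 kb flank, motif mismatches and position, promoter distance, and leaving out each library. RefSeq starts and the H19-type core were added after seeing the data. The window calls were tested on simulated lists. Python 3.11.15, numpy 2.4.6, pandas 2.3.3 and matplotlib 3.10.9 were used.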

Additional observations from a re-analysis of the deposited data

How the results depend on the processing

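No paired analysis was possible because the results come from no test, only from calls in 2 libraries a side. Counts below are windows of the imprinted genes, with the value under the main settings given first. With the lists at their deposited length, gains with IAA went from 15 to 7 in serum-free medium and from 13 to 22 in serum, losses from 21 to 10 in the wild type CTCF line and from 11 to 7 in the mutated line, gains from 11 to 19 with Chd4 shRNA1 and from 4 to 2 with Chd8 shRNA1, losses in both media from 3 to 1, and gains with both hairpins from 0 to 2 for Chd4 and from 1 to 0 for Chd8. With all lists at 59786 peaks, gains with IAA in serum-free medium were 7, the wild type line had 4 losses and 7 gains, the mutated line had 4 losses and 4 gains, and the wild type line over the mutated line had 3 gains in place of 5. Under that setting Chd8 shRNA1 had 2 gains, Chd8 shRNA2 had 5 in place of 10, both media had 5 losses, both Chd4 hairpins had 3 gains, and both Chd8 hairpins had 0 gains and 3 losses, none of them among the 5 named. With −log10 q of at least 10, gains with IAA in serum-free medium were 8 and losses in serum 4 in place of 7. Under that setting the wild type line had 5 losses and 17 gains, the mutated line 1 loss, and the wild type over the mutated line 8 gains. Chd4 shRNA1 then had 5 losses and 0 gains, Chd4 shRNA2 5 losses and 1 gain, Chd8 shRNA1 1 gain, Chd8 shRNA2 0 losses and 5 gains, both Chd4 hairpins 3 losses, and both Chd8 hairpins 0 losses and 0 gains. With 50% of a window covered, gains with IAA were 9 in serum-free medium and 7 in serum, losses were 11 in the wild type line and 5 in the mutated line, Chd4 shRNA1 had 1 gain, Chd4 shRNA2 10 losses and 2 gains, Chd8 shRNA1 2 gains, Chd8 shRNA2 0 losses and 6 gains, and both Chd8 hairpins 0 losses. Lost windows with the consensus numbered 6 in serum-free medium and 4 in serum, which became 3 and 2 without mismatch, 12 and 5 with at most 2 mismatches, and 0 and 0 within 50 bp of the centre. The cause was not tested. With a 5 kb flank all 24 counts stayed within 1.5 times. When 1 library was left out, the lowest and highest losses and gains were 24 to 34 and 27 to 33 with IAA in serum-free medium, 9 to 22 and 26 to 30 in serum, 29 to 57 and 21 to 31 in the wild type line, 23 to 32 and 22 to 29 in the mutated line, and 24 to 40 and 9 to 28 for the wild type over the mutated line. They were 33 to 49 and 19 to 38 with Chd4 shRNA1, 29 to 47 and 17 to 34 with Chd4 shRNA2, 21 to 39 and 7 to 30 with Chd8 shRNA1, and 18 to 41 and 17 to 34 with Chd8 shRNA2. They were 3 to 4 and 0 to 2 in both media, 14 to 33 and 1 to 5 with both Chd4 hairpins, and 5 to 23 and 1 to 10 with both Chd8 hairpins. These counts rise by construction, since 1 library then decides the call of its group. Of the 34 calls of named windows, 7 moved with the lists at their deposited length, 17 with all lists at 59786 peaks, 19 with −log10 q of at least 10 and 26 with 50% coverage.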
